A study of Mus musculus with 6 samples.

Results

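The genes described here build and mark blood and lymphatic vessels: Vegfa, Kdr, Flt1, Pecam1, Cdh5, Angpt1, Angpt2, Tek, Lyve1 and Prox1. They were chosen by gene name, and all 10 were present, with 1 row each, among the 24797 genes of the count table. Polyadenylated RNA had been sequenced from 6 colonic tumors, 3 from GRdim mice, in which the glucocorticoid receptor is deficient in dimerization, and 3 from GRwt mice with the wildtype receptor. GRdim is known as a point mutation of the receptor, and the labels give neither the age of the mice nor the number of animals. Every mouse of both genotypes had been given AOM/DSS, that is the carcinogen azoxymethane and the colitis-inducing agent dextran sulfate sodium. The comparison asks how tumor transcripts differ when receptor dimerization is impaired. Nothing in the labels ties each sample to an animal of its own, and the p-values cover only the variation among these 6 samples, some of it perhaps technical.

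Vegfa is the secreted signal that makes endothelial cells divide, migrate and loosen their contacts, and hypoxic cells release it. Its receptor Kdr carries most of that signal, while Flt1 binds the ligand tightly and signals little. The angiopoietins act later, on vessel stability: Angpt1 activates the receptor Tek and quiets the vessel, and Angpt2, which endothelial cells store and release, often opposes it. Pecam1 and Cdh5 hold endothelial cells together, and Lyve1 and Prox1 mark lymphatic endothelium. None of these genes is exclusive to vessels. Lyve1 is also made by some tissue macrophages, Pecam1 by platelets and leukocytes, and Prox1 by enteroendocrine cells and by epithelium of intestinal adenomas.

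The libraries held 21132981 to 36222351 counts. GRdim replicate 1 and GRwt replicate 3 have a T in their library names, which the labels do not explain, and Rn18s-rs5 took 2.05% and 2.51% of their counts, against 0.0466% to 0.0725% in the other 4, called unmarked below. The library names of GRdim replicates 1 and 3 share a number, and whether they come from 1 animal is not stated. GRdim replicate 2 alone was male by its transcripts, with 2101 counts of Ddx3y and 9 of Xist. Smooth muscle markers (8 of 8 in the table) summed to 2570, 1171 and 6292 CPM in GRdim replicates 1, 2 and 3, against 1403, 1223 and 1414 CPM in GRwt replicates 1, 2 and 3, CPM being the count scaled to the normalized library size. Adipocyte markers summed to 72.3, 3.71 and 56.5 CPM in the GRdim and 20.4, 3.66 and 3.98 CPM in the GRwt libraries, with 2 of 6 at a count of 0 in GRdim replicate 2, 4 in GRwt replicate 2 and 3 in GRwt replicate 3. GRdim replicates 1 and 3 were thus the samples highest in both kinds of surrounding tissue. Epithelial markers (7 of 7) summed to 7635 to 8489 CPM in the GRdim and 7834 to 11230 CPM in the GRwt libraries, so epithelium was present throughout. Its division into tumor and normal epithelium was not tested.

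In GRdim tumors none of the 10 vessel genes differed from GRwt tumors beyond the spread between libraries. With edgeR's quasi-likelihood test 0 of 10 passed a Benjamini-Hochberg adjusted p of 0.05, where 0 of 18756 tested genes did (0%). At an unadjusted p under 0.05 there were 0 of 10, beside 2.88% of all tested genes, and for 0 of 10 did the genotypes not overlap. Over all tested genes every GRdim library lay above every GRwt library in 2.98% and below in 3.57%. Of the 10, 7 had a positive and 3 a negative log2 fold change, with a median of 0.15, against 0.004 over all tested genes, of which 50.6% were positive and 49.4% negative. Here and below the log2 fold change is GRdim over GRwt. In bulk tissue fewer vessel cells and less RNA per vessel cell cannot be told apart.

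**Figure D1:**
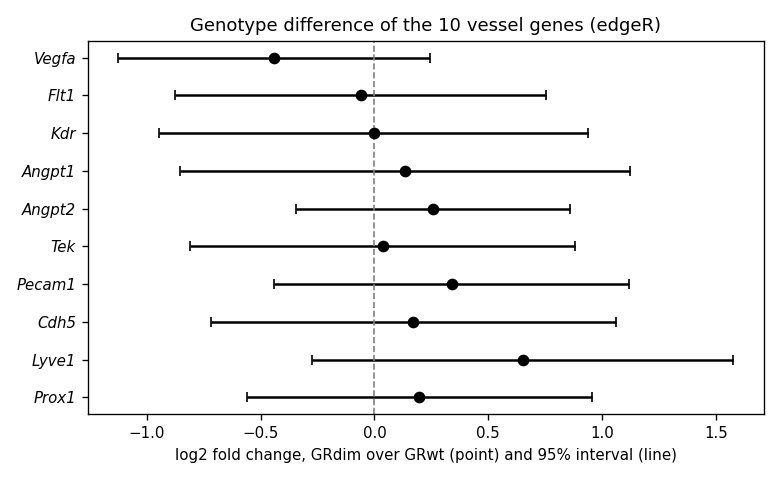
Log2 fold change of each gene, GRdim over GRwt, from the edgeR fit across all genes (points) with its 95% interval (lines). Every interval includes 0. The point lies farthest above it for Lyve1 at 0.65 and farthest below it for Vegfa at -0.44.

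Each gene nevertheless varied widely from library to library. The highest library stood at 1.88 times the lowest for Angpt2, the least, and at 3.10 times for Lyve1, the most. The intervals of the fold changes were wide in proportion. For Kdr the 95% interval ran from -0.95 to 0.94 on the log2 scale and for Pecam1 from -0.44 to 1.12, so changes of nearly 2-fold in either direction of Kdr lie within it. With the T in the library name as a covariate the SE was 0.20 for Kdr and 0.18 for Flt1, against 0.41 and 0.36 without it.

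**Figure D2:**
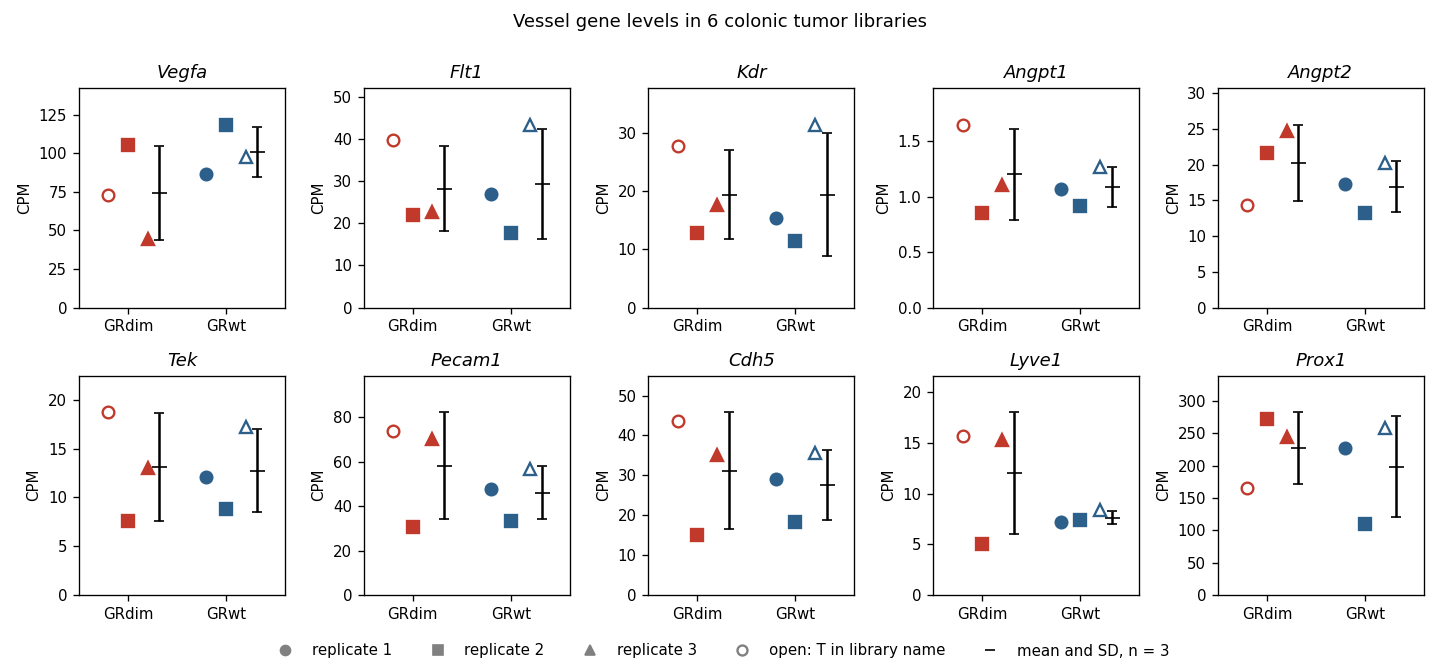
CPM of the 10 vessel genes in each library, GRdim left and GRwt right, with the mean and SD of each genotype (n = 3). Open symbols are the libraries with a T in their names. The genotypes overlap in every panel, and the highest Lyve1 values, 15.7 and 15.3 CPM, belong to GRdim replicates 1 and 3.

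Vegfa, the ligand (chromosome 17, 46327919 to 46343295, minus strand, GRCm39, as are the other gene positions), stood at 73.0, 105 and 44.2 CPM in GRdim replicates 1, 2 and 3 and at 86.5, 118 and 97.3 CPM in GRwt replicates 1, 2 and 3. GRdim replicate 3 was the lowest of the 6 and GRwt replicate 2 the highest, and GRdim replicate 2 lay within the GRwt range. The log2 fold change was -0.44 (SE 0.30, unadjusted p = 0.176, adjusted p = 1 in edgeR). By exact permutation of the genotypes over the 6 log2 CPM values the two-sided p was 0.3, and 3 samples against 3 cannot give less than 0.1. Without GRdim replicate 3 the difference was -0.18, and without GRdim replicate 2 it was -0.79 (unadjusted p = 0.0244, adjusted p = 0.996 in edgeR), so its size depended on which GRdim library was kept.

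Flt1, the receptor that takes up the ligand with little signal (chromosome 5, 147498414 to 147662821, minus strand), stood at 39.8, 22.0 and 22.8 CPM in GRdim and 27.0, 17.7 and 43.4 CPM in GRwt replicates 1, 2 and 3. Kdr, the main signalling receptor (chromosome 5, 76093487 to 76139118, minus strand), stood at 27.8, 12.8 and 17.6 CPM in GRdim and 15.3, 11.4 and 31.4 CPM in GRwt replicates 1, 2 and 3. Both receptors were highest in the libraries with a T in their names, 1 of each genotype, and above all 4 others there. Their log2 fold changes were -0.06 (SE 0.36) and -0.004 (SE 0.41). Among the 4 unmarked libraries they were -0.004 for Flt1 and 0.18 for Kdr. Flt1 and Kdr kept nearly the same ratio to each other: the log2 of Flt1 over Kdr was 0.56 ± 0.20 in GRdim and 0.63 ± 0.18 in GRwt (SD, n = 3 each). The ratio of ligand to main receptor, Vegfa over Kdr, was 1.92 ± 0.97 in GRdim and 2.50 ± 0.87 in GRwt on the log2 scale (SD, n = 3 each), and the genotypes overlapped.

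Angpt1, the stabilizing ligand of Tek (chromosome 15, 42288119 to 42540373, minus strand), was the scarcest of the 10, at 1.65, 0.849 and 1.10 CPM in GRdim and 1.07, 0.915 and 1.27 CPM in GRwt replicates 1, 2 and 3. These levels rest on 18 to 46 reads per library, and the interval of its log2 fold change ran from -0.85 to 1.12, about as wide as that of Kdr, which had 225 to 1137 reads. Angpt2, its counterpart (chromosome 8, 18740279 to 18791578, minus strand), stood at 14.3, 21.6 and 24.7 CPM in GRdim and 17.2, 13.2 and 20.2 CPM in GRwt replicates 1, 2 and 3. It was lowest in GRwt replicate 2 and GRdim replicate 1 and highest in GRdim replicate 3. For Angpt2 the log2 fold change was 0.26 (SE 0.26, unadjusted p = 0.357, adjusted p = 1 in edgeR). Among the 4 unmarked libraries it was 0.60 (unadjusted p = 0.0414, adjusted p = 0.789 in edgeR), and both GRdim libraries lay above both GRwt libraries there. Angpt2 lies opposite to Mcph1, a gene on the other strand with 258 to 565 counts, and since the strand setting of the counting is not given, reads of one could be counted for the other.

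Tek, the receptor of both angiopoietins (chromosome 4, 94627526 to 94763213, plus strand), stood at 18.7, 7.62 and 13.0 CPM in GRdim and 12.1, 8.84 and 17.3 CPM in GRwt replicates 1, 2 and 3. Like Kdr and Flt1 it was highest in GRdim replicate 1 and GRwt replicate 3, and it was lowest in replicate 2 of each genotype. Tek had a log2 fold change of 0.04 (SE 0.37). The log2 ratio of Angpt2 over Angpt1 was 3.07, 4.57 and 4.41 in GRdim and 3.93, 3.75 and 3.93 in GRwt replicates 1, 2 and 3. The 3 GRwt values thus lay close together, and the GRdim values spread on either side of them. With only 18 to 46 reads of Angpt1 per library, counting error bears on this ratio, and its part was not tested.

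The sequence before the start of the 3 receptor genes, whose levels varied together across the libraries, is shown from RefSeq on build GRCm38.p6, an older build than that of the counts. Each line gives the 250 bases before the start, from 5′ to 3′ along the gene. Capitals mark AGGAAG or CGGAAG, core motifs of the ETS factors that drive many endothelial genes, or AGAACA, the motif bound by a single glucocorticoid receptor molecule, on either strand.
Flt1, chr5:147726012-147726261, minus strand: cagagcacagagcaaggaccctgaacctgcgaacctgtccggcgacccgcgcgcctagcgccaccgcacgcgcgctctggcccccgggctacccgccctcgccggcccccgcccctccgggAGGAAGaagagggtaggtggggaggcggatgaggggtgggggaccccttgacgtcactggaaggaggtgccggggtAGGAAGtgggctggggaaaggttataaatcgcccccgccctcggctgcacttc
Kdr, chr5:75978456-75978705, minus strand: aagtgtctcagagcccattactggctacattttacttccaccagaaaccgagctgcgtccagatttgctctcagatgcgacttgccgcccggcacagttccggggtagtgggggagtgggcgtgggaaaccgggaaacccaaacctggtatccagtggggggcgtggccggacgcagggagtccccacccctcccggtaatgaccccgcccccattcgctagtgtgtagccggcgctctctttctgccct
Tek, chr4:94739039-94739288, plus strand: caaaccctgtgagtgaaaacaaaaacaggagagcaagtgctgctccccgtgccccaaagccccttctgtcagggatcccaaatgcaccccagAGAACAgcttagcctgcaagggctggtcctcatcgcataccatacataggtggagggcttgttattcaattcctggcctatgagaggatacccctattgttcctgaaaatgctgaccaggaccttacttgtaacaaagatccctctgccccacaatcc
Windows of 250 bases before to 50 after the start were given for 5 of the 10 genes (Vegfa, Flt1, Kdr, Tek and Prox1), 7 windows in all, because Vegfa and Prox1 have more than 1 start. AGGAAG occurred at positions -129 and -53 from the start of Flt1 and in 35.4% of all 32851 windows. AGAACA occurred at position -158 of Tek and in 19.0% of all windows. The palindrome to which a receptor dimer binds, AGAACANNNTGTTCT, was in 0 of the 7 windows and in 0.00913% of all windows, and CGGAAG in 0 of the 7 and 16.9% of all. ACGTG, the core of the hypoxia response element, was in 1 of the 7 and in 19.6% of all. The 1 match was at position -211 of a Vegfa window whose start was not found near the beginning of a GENCODE transcript. The other Vegfa window, whose start was found there, held no ACGTG. The motifs share no bases in the sequences shown.

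Pecam1, the platelet and endothelial adhesion molecule (chromosome 11, 106545043 to 106641454, minus strand), stood at 74.0, 30.6 and 70.3 CPM in GRdim and 47.9, 33.3 and 56.9 CPM in GRwt replicates 1, 2 and 3. GRdim replicates 1 and 3 were the highest of the 6 and GRdim replicate 2 the lowest. The log2 fold change was 0.34 (SE 0.34, unadjusted p = 0.348, adjusted p = 1 in edgeR), and it was 0.64 without GRdim replicate 2 (unadjusted p = 0.0375, adjusted p = 1 in edgeR). Platelet markers (5 of 5 in the table) summed to 9.09, 9.68 and 12.4 CPM in GRdim and 10.6, 8.69 and 8.75 CPM in GRwt replicates 1, 2 and 3, with 1 of 5 at a count of 0 in every library but GRdim replicate 1. Their part in the Pecam1 level was not tested.

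Cdh5, the cadherin of endothelial junctions (chromosome 8, 104828257 to 104871143, plus strand), stood at 43.6, 15.0 and 35.0 CPM in GRdim and 29.0, 18.3 and 35.7 CPM in GRwt replicates 1, 2 and 3. It followed Pecam1 closely, low in replicate 2 of each genotype and highest in GRdim replicate 1. Centred on its mean over the 6 libraries, its log2 CPM differed from that of Pecam1 by a root mean square of 0.14 and from that of Tek by 0.16, against 0.67 from Prox1 and 0.91 from Vegfa. For Cdh5 the log2 fold change was 0.17 (SE 0.39). It was 0.50 without GRdim replicate 2 and -0.15 without GRdim replicate 1. Relative to the mean of Pecam1 and Cdh5 in the same library, Kdr stood at -1.09 ± 0.38 in GRdim and -0.97 ± 0.40 in GRwt, and Tek at -1.67 ± 0.23 in GRdim and -1.49 ± 0.12 in GRwt (log2 ratios, SD, n = 3 each). Both receptors thus overlapped between genotypes on this scale as well.

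**Figure D3:**
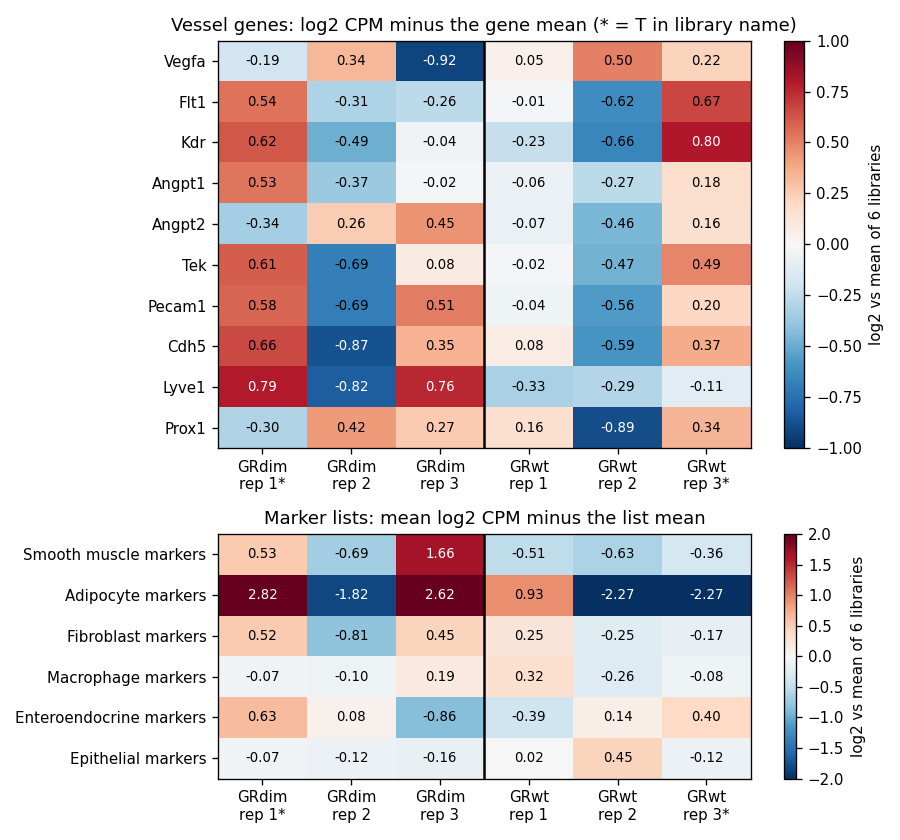
Log2 CPM of each vessel gene minus its mean over the 6 libraries (upper panel) and the mean of each marker list on the same footing (lower panel). Columns are libraries, GRdim left and GRwt right of the line, and asterisks mark a T in the library name. Colours end at 1 log2 unit in the upper and 2 in the lower panel, and printed values beyond them, as for adipocytes, share the end colour. Tek, Pecam1 and Cdh5 are low in replicate 2 of both genotypes, at -0.69, -0.69 and -0.87 in GRdim and -0.47, -0.56 and -0.59 in GRwt.

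Among all named genes with a mean of at least 1 CPM, 13878 in number, the centred profile of Cdh5 was nearest to those of Elavl4, Lifr, Itga9, Ebf3 and Mest, at root mean square differences of 0.12 to 0.15 log2 units over the 6 libraries. Elavl4 is an RNA-binding protein of neurons, Lifr the receptor of leukemia inhibitory factor and Itga9 an integrin of lymphatic endothelium and other cells. Vegfa was nearest to Alox5, C2cd4a, Msc, Gpr34 and Ccdc68, at 0.13 to 0.17. Alox5, which begins leukotriene synthesis in leukocytes, stood at 1.80, 2.41 and 1.06 CPM in GRdim and 2.47, 2.49 and 2.29 CPM in GRwt replicates 1, 2 and 3, with the minimum in the same library as Vegfa. These likenesses are a description over 6 libraries.

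Lyve1, a hyaluronan receptor of lymphatic endothelium (chromosome 7, 110449814 to 110462446, minus strand), had the largest difference of the 10 in the edgeR fit of all 6 libraries, at 0.65, but not with limma-voom or among the 4 unmarked libraries, where it was 0.19 and 0.48 and Prox1 0.59 and 0.61. It stood at 15.7, 5.07 and 15.3 CPM in GRdim replicates 1, 2 and 3, against 7.19, 7.37 and 8.37 CPM in GRwt replicates 1, 2 and 3. The GRwt tumors lay close together, GRdim replicates 1 and 3 lay well above them and GRdim replicate 2 below. The log2 fold change was 0.65 (SE 0.41, unadjusted p = 0.144, adjusted p = 1 in edgeR; exact two-sided permutation p = 0.4). Without GRdim replicate 2 it was 1.02 (unadjusted p = 0.00345, adjusted p = 0.595 in edgeR), and without GRdim replicate 1 it was 0.41. With GRdim replicates 1 and 3 summed into 1 sample it was 0.42 (unadjusted p = 0.358 in edgeR). The run without GRdim replicate 2, here as for Vegfa, Pecam1 and Cdh5, also leaves out the only male library. The GRdim libraries that it keeps share a number in their names, and the part of sex was not tested.

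GRdim replicates 1 and 3, the libraries high in Lyve1, were also those with the highest smooth muscle and adipocyte sums given above, whereas GRdim replicate 2 was the lowest in smooth muscle markers. Fibroblast markers (6 of 6) followed the same order within GRdim, at 2352, 935 and 2215 CPM in GRdim and 2140, 1489 and 1501 CPM in GRwt replicates 1, 2 and 3. Macrophage markers (7 of 7), which mark the other cells that make Lyve1, summed to 190, 255 and 271 CPM in GRdim and 339, 197 and 203 CPM in GRwt replicates 1, 2 and 3, with none at a count of 0. C1qa and C1qb make up most of that sum, and the other members did not share 1 order. Cd68, Csf1r and Adgre1 were highest in GRwt replicate 1, at 29.4, 46.2 and 9.51 CPM, whereas Mrc1 and Cd163 resembled Lyve1. Mrc1, the mannose receptor of resident macrophages, stood at 25.4, 14.6 and 24.5 CPM in GRdim and 15.0, 15.2 and 19.4 CPM in GRwt replicates 1, 2 and 3, and the scavenger receptor Cd163 stood at 1.08, 0.481 and 1.14 CPM in GRdim and 0.803, 0.711 and 0.690 CPM in GRwt replicates 1, 2 and 3. Both were highest in GRdim replicates 1 and 3 and lowest in GRdim replicate 2. The part of macrophages and of surrounding tissue in the Lyve1 level was not tested. The genes nearest to the Lyve1 profile were Tacc1, Rragd, Cavin2, Phactr1 and Prune2, at 0.10 to 0.12 log2 units. Cavin2, a coat protein of caveolae, stood at 27.0, 9.26 and 28.4 CPM in GRdim and 14.5, 11.8 and 16.6 CPM in GRwt replicates 1, 2 and 3.

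Prox1, the transcription factor that sets lymphatic identity (chromosome 1, 189850232 to 189902911, minus strand), did not follow Lyve1. It stood at 165, 273 and 244 CPM in GRdim and 227, 109.7 and 258 CPM in GRwt replicates 1, 2 and 3, highest in the GRdim library in which Lyve1 was lowest. The log2 ratio of Prox1 over Lyve1 was 3.39, 5.73 and 3.99 in GRdim and 4.97, 3.88 and 4.94 in GRwt replicates 1, 2 and 3. For Prox1 the log2 fold change was 0.20 (SE 0.33). It was -0.09 without GRwt replicate 2, and 0.61 among the 4 unmarked libraries (unadjusted p = 0.125, adjusted p = 0.841 in edgeR).

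Per length of its exons, Prox1 was the most abundant of the 10, with a median of 28.1 CPM per kilobase over the 6 libraries, against 2.7 for Lyve1, 7.62 for Cdh5 and 8.41 for Pecam1. A gene of lymphatic identity thus stood above the markers of all endothelium in these tumors. Enteroendocrine markers (5 of 5) summed to 166, 118 and 61.3 CPM in GRdim and 89.4, 170 and 148 CPM in GRwt replicates 1, 2 and 3, a sum mostly of Chgb and Chga. Of that list Chga was highest in GRwt replicate 2, the library lowest in Prox1, at 53.0 CPM. Chgb, Scg5 and the transcription factors Neurod1 and Pax6 were highest in GRdim replicate 1, the library next lowest in Prox1. Neurod1 and Pax6 stood at no more than 2.69 and 1.31 CPM. The epithelial sum was highest in GRwt replicate 2, at 11230 CPM. Which cells hold the Prox1 transcript was not tested. Prox1 lies opposite to the noncoding genes Prox1os, Gm28172 and Gm57154, whose counts ran from 3 to 85 against 2158 to 9629 for Prox1.

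On the same per-length scale Vegfa followed with 21.5 CPM per kilobase, then Pecam1, Cdh5, Angpt2 at 5.08, Lyve1, Tek at 2.67, Flt1 at 1.84, Kdr at 1.82 and Angpt1 at 0.209. Flt1 and Kdr changed places between libraries, Flt1 being higher in 3 of 6, and Lyve1 was above Tek in 4 of 6. Pecam1 was above Cdh5 and Kdr above Angpt1 in 6 of 6, and each other pair of neighbours kept its order in 5 of 6. Both Vegfa receptors of the blood endothelium were thus at similar levels on this scale, and Angpt1 was the lowest in every library. The scale divides by all annotated exons of a gene together, 13504 bases for Flt1 and 9030 for Kdr. In CPM Flt1 was above Kdr in every library, at 1.30 to 1.76 times.

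In the wider set of vessel genes, 91 genes in 9 lists, 60 had a positive and 31 a negative log2 fold change, with a median of 0.16. Over all tested genes 50.6% were positive and the median was 0.004. With edgeR 0 of 91 passed over all genes. At an unadjusted p under 0.05, 8 were higher (8.79%) and 3 lower (3.30%) in GRdim, where 1.79% of all tested genes were higher and 1.09% lower. Every GRdim library lay above every GRwt library for 8 of them and below for 2, beside 2.98% and 3.57% of all tested genes. These shares over all genes also stand beside the counts of each list below. The lists were chosen with earlier results of these data known, and genes such as Mmrn1 and Flt4 were high in the same libraries. The 91 genes are thus not separate outcomes, and their counts are a description only.

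**Figure D4:**
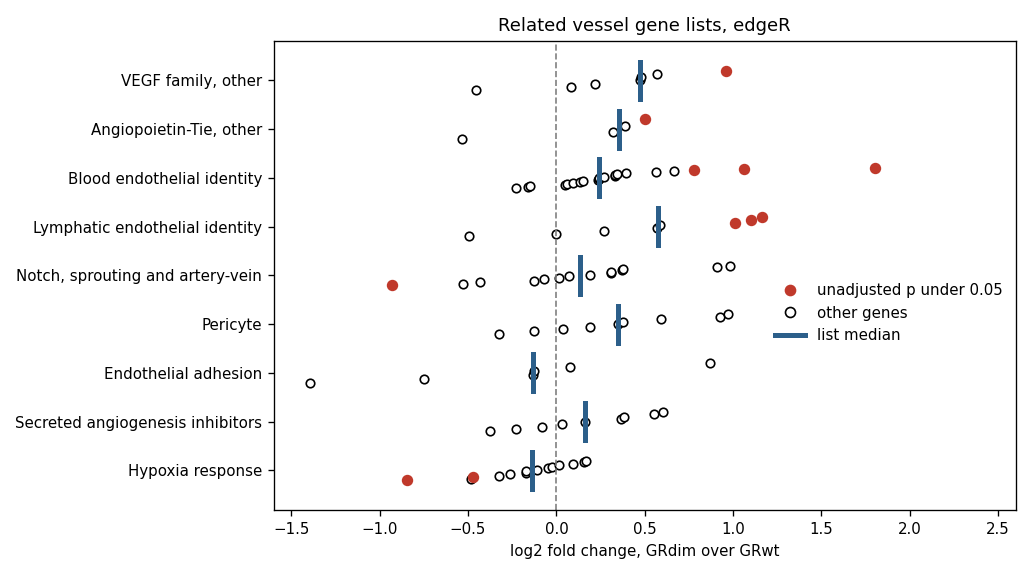
Log2 fold change, GRdim over GRwt, of each tested gene in the 9 related lists (circles), with the list median (blue bars) and genes with an unadjusted p under 0.05 in red. The lymphatic list has its median at 0.58 and 3 red points to the right, while the hypoxia list has its median at -0.14 and 2 red points to the left.

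The other lymphatic genes did not share 1 order over the libraries. Of 8 tested, 6 were higher and 2 lower, with a median log2 fold change of 0.58, and 3 were higher at an unadjusted p under 0.05. The median was 0.28 without GRdim replicate 3, 0.74 without GRdim replicate 2, and 0.41 with limma-voom. Mmrn1, a secreted glycoprotein of lymphatic endothelium and platelets, stood at 9.99, 4.13 and 12.4 CPM in GRdim and 3.60, 4.32 and 4.45 CPM in GRwt replicates 1, 2 and 3 (log2 fold change 1.10, SE 0.40, unadjusted p = 0.0248, adjusted p = 1 in edgeR). Reln, the matrix protein reelin, stood at 7.48, 3.37 and 7.34 CPM in GRdim and 2.02, 4.17 and 2.87 CPM in GRwt replicates 1, 2 and 3. In both, GRdim replicates 1 and 3 were above every GRwt library and GRdim replicate 2 was not. The receptor Flt4, which responds to Vegfc and Vegfd, showed the same order, at 13.4, 5.61 and 16.1 CPM in GRdim and 7.85, 7.67 and 8.12 CPM in GRwt replicates 1, 2 and 3 (log2 fold change 0.57, SE 0.37). Foxc2, a transcription factor of lymphatic valves, was instead low in GRdim replicate 1, as Prox1 was, at 7.07, 19.8 and 22.0 CPM in GRdim and 14.7, 9.81 and 8.06 CPM in GRwt replicates 1, 2 and 3 (log2 fold change 0.59, SE 0.42).

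Ccl21a, the chemokine by which lymphatic vessels and lymphoid tissue draw in dendritic cells and T cells, was higher in all 3 GRdim tumors, at 22.4, 20.7 and 35.9 CPM in GRdim and 11.2, 13.2 and 10.8 CPM in GRwt replicates 1, 2 and 3. The log2 fold change was 1.16 (SE 0.26, unadjusted p = 0.00158, adjusted p = 1 in edgeR), and DESeq2 gave an adjusted p of 0.0448. Leaving out any 1 library gave 0.87 to 1.31, the lowest of these when GRdim replicate 3 was left out. Near-identical copies of this gene exist in the mouse genome, so the division of reads among them is uncertain. Pdpn, podoplanin, which fibroblasts and macrophages also make, went the other way, at 24.8, 14.6 and 27.7 CPM in GRdim and 31.8, 29.0 and 33.7 CPM in GRwt replicates 1, 2 and 3 (log2 fold change -0.49, SE 0.25, unadjusted p = 0.0813, adjusted p = 1 in edgeR), and every GRdim library lay below every GRwt library.

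**Figure D5:**
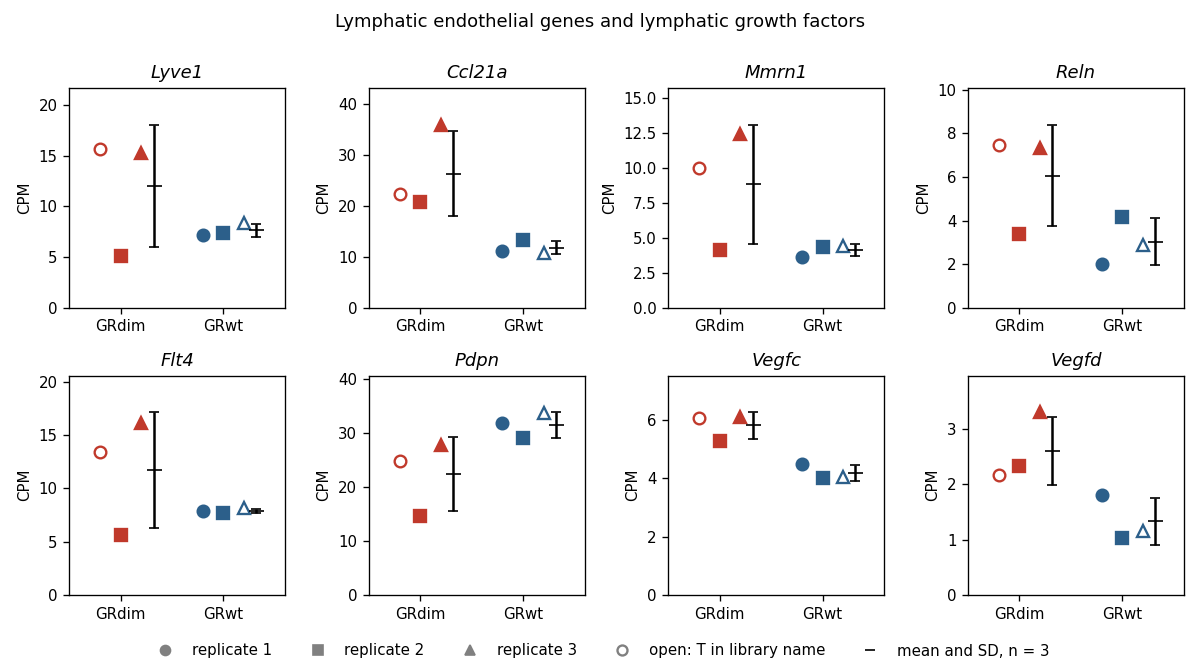
CPM of lymphatic endothelial genes and of the growth factors Vegfc and Vegfd in each library, GRdim left and GRwt right, with the mean and SD of each genotype (n = 3). Lyve1, Mmrn1, Reln and Flt4 are high in GRdim replicates 1 and 3 but not in replicate 2 (square), whereas for Ccl21a, Vegfc and Vegfd the lowest GRdim value exceeds the highest GRwt value.

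The growth factors of lymphatic vessels had positive log2 fold changes, where that of Vegfa was negative, and none passed the threshold. Vegfd stood at 2.17, 2.32 and 3.30 CPM in GRdim and 1.81, 1.02 and 1.16 CPM in GRwt replicates 1, 2 and 3 (log2 fold change 0.96, SE 0.40, unadjusted p = 0.0407, adjusted p = 1 in edgeR). Leaving out any 1 library gave 0.74 to 1.25 for Vegfd, at an unadjusted p of 0.0254 to 0.13 in edgeR. Vegfc stood at 6.06, 5.29 and 6.09 CPM in GRdim and 4.49, 4.01 and 4.03 CPM in GRwt replicates 1, 2 and 3 (log2 fold change 0.48, SE 0.26, unadjusted p = 0.105 in edgeR). Neither overlapped between the genotypes. Nrp2, a coreceptor for Vegfc, stood at 118, 53.0 and 75.0 CPM in GRdim and 51.0, 50.9 and 74.3 CPM in GRwt replicates 1, 2 and 3. Of the 7 other genes of the family 6 were higher and 1, Pgf, lower. The list median was 0.48, 0.19 without GRdim replicate 1 and 0.18 with limma-voom.

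Of 21 blood endothelial genes 18 were higher and 3 lower, with a median log2 fold change of 0.24, and 3 were higher at an unadjusted p under 0.05. With limma-voom, which gives each library a weight, 13 of 21 were higher and the median was 0.05. Vwf, von Willebrand factor, stood at 32.6, 16.7 and 43.3 CPM in GRdim and 14.3, 14.0 and 16.1 CPM in GRwt replicates 1, 2 and 3 (log2 fold change 1.06, SE 0.32, unadjusted p = 0.01, adjusted p = 1 in edgeR). Cldn5, the claudin of endothelial tight junctions, stood at 5.24, 4.84 and 17.3 CPM in GRdim and 3.45, 2.49 and 1.91 CPM in GRwt replicates 1, 2 and 3. Its log2 fold change was 1.80 (SE 0.54) and 0.94 without GRdim replicate 3. Sox17, a transcription factor of arterial endothelium, stood at 27.0, 61.7 and 60.0 CPM in GRdim and 22.3, 29.7 and 34.9 CPM in GRwt replicates 1, 2 and 3. It was thus highest in GRdim replicate 2, where Pecam1, Cdh5 and Tek were lowest, and which cells hold its transcript was not tested. The list's median moved with single libraries, from 0.08 without GRdim replicate 3 to 0.48 without GRdim replicate 2, and with 12 to 20 of the 21 higher. It was also 0.44 without GRwt replicate 1 and 0.12 without GRwt replicate 2. The high Vwf and Cldn5 values of GRdim replicate 3 fell in the library with the highest smooth muscle sum, and the part of that tissue was not tested.

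In the angiopoietin pathway 3 of 4 other genes were higher, with a median of 0.35. It was 0.02 with 2 of 4 higher without GRdim replicate 1, 0.17 without GRwt replicate 2, 0.58 without GRdim replicate 2 and 0.12 with limma-voom. Svep1, a matrix protein that binds the receptor Tie1, stood at 46.3, 38.6 and 45.7 CPM in GRdim and 30.3, 27.6 and 34.3 CPM in GRwt replicates 1, 2 and 3, with no overlap (log2 fold change 0.50, SE 0.17, unadjusted p = 0.0185, adjusted p = 1 in edgeR). Leaving out any 1 library gave 0.43 to 0.58. Tie1, the partner receptor of Tek, and Ptprb, the phosphatase that restrains Tek, had log2 fold changes of 0.32 (SE 0.31) and 0.39 (SE 0.43), and both overlapped between genotypes.

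Of 9 pericyte genes 7 were higher and 2 lower, with a median log2 fold change of 0.35 and 0 at an unadjusted p under 0.05. Cspg4, the proteoglycan NG2 of pericytes, stood at 20.3, 6.12 and 23.2 CPM in GRdim and 8.59, 6.81 and 10.6 CPM in GRwt replicates 1, 2 and 3, and Notch3 at 15.8, 7.08 and 15.3 CPM in GRdim and 8.47, 8.03 and 8.84 CPM in GRwt replicates 1, 2 and 3. Both were high in GRdim replicates 1 and 3, the order seen for Lyve1 and the smooth muscle markers. Higd1b did not overlap between genotypes but stayed at 0.254 to 1.21 CPM. The list median was 0.17 without GRdim replicate 1, 0.15 when GRwt replicate 2 was left out and 0.66 without GRdim replicate 2, and 0.08 with limma-voom.

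Of 14 genes of Notch signalling, sprouting and artery or vein identity 9 were higher and 5 lower, with a median log2 fold change of 0.13. The median was 0.05 without GRdim replicate 1 or without GRwt replicate 1. It was 0.27 without GRdim replicate 2, 0.24 without GRdim replicate 3 and 0.20 without GRwt replicate 2. With limma-voom and among the 4 unmarked libraries 7 of 14 were higher and the median was 0.03 and 0.006. Esm1, a proteoglycan that Vegfa induces in tip cells, was the 1 gene at an unadjusted p under 0.05. It stood at 7.11, 5.32 and 4.07 CPM in GRdim and 11.3, 6.61 and 13.5 CPM in GRwt replicates 1, 2 and 3 (log2 fold change -0.93, SE 0.34, unadjusted p = 0.0254, adjusted p = 1 in edgeR). GRwt replicate 2 lay within the GRdim range. Notch4, the endothelial Notch receptor, had a log2 fold change of -0.44 (SE 0.23) and Bmx, a kinase of arterial endothelium, 0.98 (SE 0.50) at means of 1.18 CPM in GRdim and 0.585 CPM in GRwt.

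Of 14 hypoxia response genes 4 were higher and 10 lower, with a median log2 fold change of -0.14, and 2 were lower at an unadjusted p under 0.05. Adm, adrenomedullin, a vasodilator peptide that hypoxia induces, stood at 6.88, 6.99 and 5.28 CPM in GRdim and 11.0, 13.4 and 10.2 CPM in GRwt replicates 1, 2 and 3, with every GRdim library below every GRwt library. Its log2 fold change was -0.85 (SE 0.25, unadjusted p = 0.00824, adjusted p = 1 in edgeR), and leaving out any 1 library gave -0.95 to -0.73. Car9, the hypoxia-induced carbonic anhydrase, stood at 36.8, 39.9 and 31.2 CPM in GRdim and 55.4, 56.6 and 38.1 CPM in GRwt replicates 1, 2 and 3, and Slc2a1, the glucose transporter GLUT1, at 114, 133 and 95.3 CPM in GRdim and 143, 226 and 110 CPM in GRwt replicates 1, 2 and 3. Adm, Car9, Slc2a1 and Vegfa all had their lowest value in GRdim replicate 3 and their highest in GRwt replicate 2. Adm, Car9 and Slc2a1 were named for having the smallest p, and the list as a whole did not share these extremes. Ndrg1 had both of them, but Bnip3 and Ankrd37 were highest in GRdim replicate 2 and lowest in GRdim replicate 1. Pdk1 and Epas1 were highest in GRdim replicate 1 and lowest in GRdim replicate 2. The epithelial markers lay on the same side as this list, with 0 of 7 higher, 7 of 7 lower and a median of -0.19, and their sum was highest in GRwt replicate 2 as well. Their part in the hypoxia genes was not tested. Leaving out GRwt replicate 2 brought the list median to -0.02, and it was -0.25 without GRdim replicate 1 and -0.21 without GRdim replicate 2.

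Endothelial adhesion genes and secreted inhibitors of angiogenesis held no gene at an unadjusted p under 0.05. Of 6 adhesion genes 2 were higher and 4 lower (median -0.13), and 1 was higher when GRdim replicate 1 or GRwt replicate 2 was left out. Selp, P-selectin, by which leukocytes roll on vessels, stood at 9.61, 1.73 and 8.22 CPM in GRdim and 8.77, 7.01 and 16.9 CPM in GRwt replicates 1, 2 and 3. Sele, E-selectin, ran from 0.0566 to 1.82 CPM, and Ackr1, the chemokine receptor of venules, from 1.84 to 11.7 CPM. Of 9 inhibitors 6 were higher and 3 lower (median 0.16, and -0.23 with 4 of 9 higher without GRdim replicate 1, 0.08 with limma-voom), with log2 fold changes of 0.60 for Sema3a (SE 0.31), 0.38 for Sema3f (SE 0.32) and -0.38 for Vash2 (SE 0.30).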

How the data were processed

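The genes, the related lists and the tests were chosen with earlier results of these data known. Raw read counts per gene were deposited without normalization (whole numbers, with library totals that differ). Per the submitters' processing notes, the authors used bcl2fastq 2.20.0.422, Trim Galore, FastQC, MultiQC, STAR 2.7.8a with GRCm39, featureCounts of Subread 1.5.0 and DESeq2 1.40.2. The annotation release and the strand setting are not given in the sources used here. Library columns were matched through the library names in the descriptions.

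The quasi-likelihood test of edgeR 4.0.16 (R 4.3.3) was run on the whole table after TMM normalization and the default filter on low counts, with Benjamini-Hochberg adjustment over 18756 genes and a threshold of 0.05. All 10 genes passed the filter. CPM uses the TMM-scaled total, and log2 CPM a prior count of 2. Standard errors are the log2 fold change divided by the square root of F. Exon lengths are from GENCODE M21, another build than the counts. Within each related list the up to 3 genes of smallest p are named, and for Cdh5, Vegfa and Lyve1 the 5 genes nearest in profile. Flt4, Foxc2, Pgf, Pdpn, Ndrg1, Bnip3, Ankrd37, Pdk1, Epas1 and the single macrophage and enteroendocrine markers, outside that rule, were named after their values were seen. Alternatives were DESeq2 1.42.0, limma-voom (limma 3.58.1), other size factors, no filter, the T as a covariate, and libraries left out or summed. Over the whole table the 6 libraries all differed by more than sampling noise, and counting error is small beside that spread. This need not hold for genes with few reads, such as Angpt1.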

Additional observations from a re-analysis of the deposited data

How the results depend on the processing

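No vessel gene of the 10 passed the threshold under any alternative run. DESeq2 called 10 genes higher and 22 lower over the whole table, where edgeR called 0 and 0, with 336 higher and 205 lower at an unadjusted p under 0.05. limma-voom called 0. Some log2 fold changes near 0 changed sign, and the cause was not tested. Kdr (-0.004) was 0.051 with limma-voom, 0.059 with the T as a covariate, 0.178 among the 4 unmarked libraries and 0.064 with the replicate number as a block. With limma-voom Flt1 was 0.019, Cdh5 -0.064, Angpt1 -0.01 and Tek -0.12. Among the 4 unmarked libraries Angpt1 was -0.035 and Tek -0.031, and with GRdim replicates 1 and 3 summed Cdh5 was -0.04 and Tek -0.13. Leaving out 1 library at a time gave -0.36 to 0.51 for Kdr, -0.40 to 0.31 for Flt1, -0.15 to 0.50 for Cdh5, -0.16 to 0.33 for Angpt1, -0.31 to 0.31 for Tek and -0.093 to 0.407 for Prox1. Vegfa (-0.79 to -0.18), Lyve1 (0.41 to 1.02), Pecam1 (0.13 to 0.64) and Angpt2 (0.09 to 0.45) kept their sign. With limma-voom Lyve1 was 0.187, outside its range, Pecam1 0.173, Prox1 0.595, Angpt2 0.392 and Vegfa -0.473. The median of the 10 ran from -0.16 to 0.38. The replicate number is not stated to pair samples, and the block called 0 genes. Deviations from the genotype mean correlated at -0.39, 0.03 and -0.43 between same-numbered libraries, which thus did not deviate together. Pairs of unlike number ran from -0.12 (GRdim replicate 1 with GRwt replicate 2) to 0.45 (GRdim replicate 1 with GRwt replicate 3, both with a T in their names). Counts of the related lists without single libraries were added after the data were seen. Angpt1 rests on the fewest reads, 18 to 46 per library.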
